A study of Mus musculus with 6 samples.

Results

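The 9 genes described here encode the main leukocyte integrins (Itgal, Itgam, Itgax, Itgb2 and Itga4), the endothelial selectins Sele and Selp, and the endothelial integrin ligands Icam1 and Vcam1. They were chosen by gene name or by the current RefSeq symbol of the probe's transcript, and 23 of 56599 probes belonged to them. A probe was kept where it was well above background on at least 3 arrays. Probes of 7 of the 9 genes were kept, among 22741 genes tested in all, and Sele and Selp were not tested. The samples were renal cortex of male C57BL/6 mice in 2 groups of 3, C3aR-/- mice, which lack the receptor for the complement fragment C3a, and WT mice. Both groups were diabetic: at 8 weeks of age they were put on a high-fat diet (60% of the calories) lasting 4 weeks, then received streptozotocin, a toxin of insulin-producing beta cells, at 60 mg/kg on 3 consecutive days, and were killed 26 weeks later. Non-diabetic animals were not analysed here, so each comparison is between diabetic kidneys. Each sample was hybridised to 1 one-colour Agilent array, and the labels do not say how the receptor gene was disrupted or whether replicates were separate animals, so p-values cover only the spread among these 6 samples, which may be technical.

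Leukocytes leave the blood in steps. Selectins on activated endothelium (Sele, Selp) capture rolling cells through carbohydrate ligands, chemokines then switch leukocyte integrins to their binding state, and the integrins hold on to Icam1 and Vcam1 before the cells cross the vessel wall. An integrin is a pair of an alpha and a beta chain: Itgb2 (CD18) pairs with Itgal to form LFA-1, with Itgam to form Mac-1 and with Itgax to form p150,95, while Itga4 pairs with Itgb1 to form VLA-4 or with Itgb7. In kidney, tubule cells as well as vessels can display Icam1 and Vcam1 when inflamed.

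Levels are log2 signals relative to the 75th percentile of the array. Every difference is the C3aR-/- mean minus the WT mean of 3 arrays each, given ± its standard error from limma. Levels of different probes are not comparable with each other. The targeted gene C3ar1 read -4.10, -4.95 and -4.69 in C3aR-/- cortex, against -2.96, -3.86 and -3.62 in WT cortex, at a probe well above background on 5 arrays. As to the labelled tissue, all 8 proximal tubule markers were measured, with mean levels of 5.84 to 6.54 in C3aR-/- and 4.95 to 6.16 in WT cortex, and so were 6 of 6 podocyte markers and 6 of 6 medullary markers. All 6 arrays lay on 1 slide in 1 scan. C3aR-/- replicate 3 and WT replicate 1 lay in slide row 2 and the other 4 arrays in row 1, and C3aR-/- replicate 2 and WT replicate 1 lay at opposite ends of principal component 1 (43.1% of the variance), so results are given by row and without these arrays where that matters.

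The comparison asks how diabetic C3aR-/- cortex differed from diabetic WT cortex in the genes of leukocyte adhesion. Of the 7 measured genes, 6 read lower in C3aR-/- cortex, where 43.4% of all tested genes read lower, and their median difference was -0.64, against 0.026 over all genes. The 2 groups did not overlap and C3aR-/- was the lower one for 3 genes, Itgal, Itgax and Itgb2, where 4.19% of all genes did so. Itgam was separated in the other direction, and 9.84% of all genes were separated in either. A difference of -0.5 or lower was read in 4 of the 7, against 4.28% of all genes. The same 3 genes had an unadjusted limma p under 0.05, which 2.68% of all genes had in that direction. No gene of the 7 and none of the 22741 passed an adjusted p of 0.05 (limma with Benjamini-Hochberg adjustment), the lowest adjusted p of any gene was 0.858, and 1111 genes had an unadjusted p under 0.05 (4.89%). In bulk cortex, fewer cells of a type and less RNA per cell cannot be told apart.

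**Figure D1:**
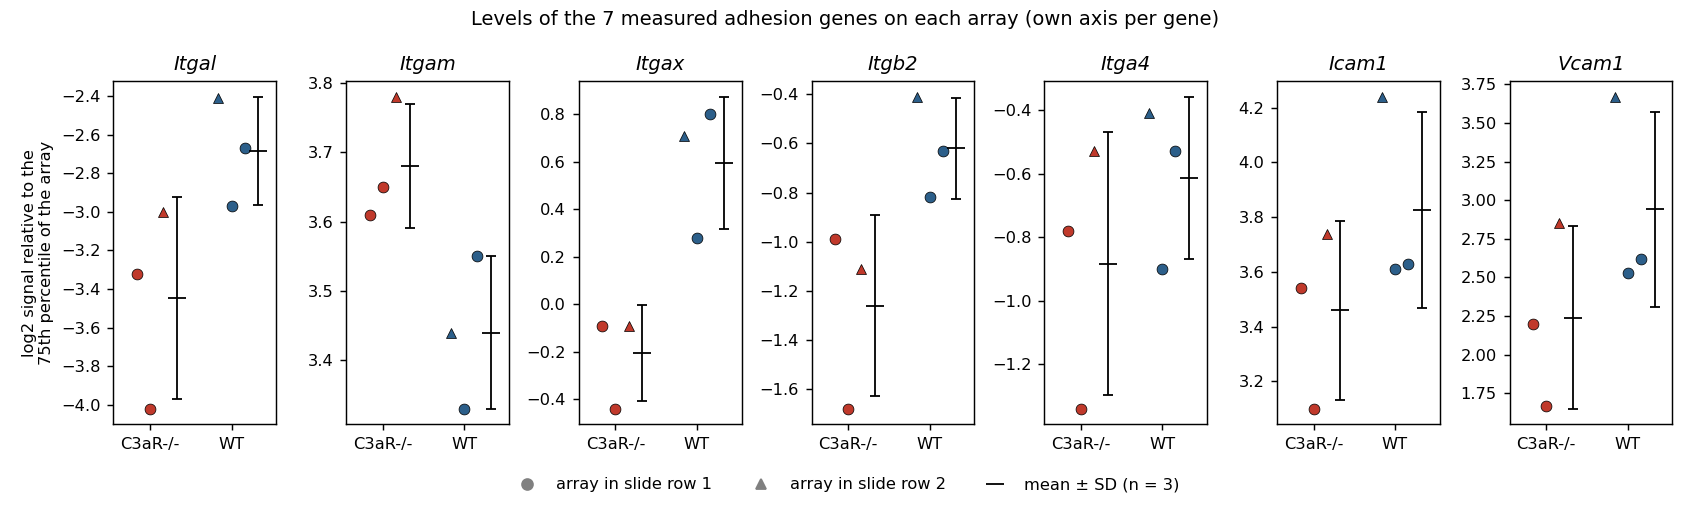
Level of each measured gene on every array (y axis, log2 signal relative to the array's 75th percentile, with an axis of its own per gene), C3aR-/- left and WT right. Circles are arrays of slide row 1, triangles arrays of row 2, and bars the mean ± SD over 3 arrays. Itgal, Itgax and Itgb2 lie lower in C3aR-/- without overlap, and the Itgam probe, which holds a CA run and gives no direction for its gene, lies higher. The row 2 array is the highest of its group for Vcam1, Icam1, Itgal and Itga4.

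Itgax, the alpha chain CD11c of dendritic cells and macrophages, had the lowest unadjusted p of the 7 genes. It read -0.09, -0.44 and -0.09 in C3aR-/- cortex, against 0.71, 0.28 and 0.80 in WT cortex. The lowest WT array thus stood above the highest C3aR-/- array. The difference was -0.80 ± 0.18 (95% interval -1.23 to -0.37), which is 0.574 of the WT level, with an unadjusted limma p of 0.00348 and an adjusted p of 0.92 over all genes. Its size stayed between -0.61 and -0.96 under all 19 alternatives. Within slide row 1 it was -0.81 and within row 2 -0.79.

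Itgb2, the beta chain that all the CD11 alpha chains need to reach the cell surface, read -0.99, -1.68 and -1.11 in C3aR-/- cortex, against -0.41, -0.82 and -0.63 in WT cortex. Again the groups did not meet, although C3aR-/- replicate 2 lay well under the other arrays of its group. The difference was -0.64 ± 0.21 (limma adjusted p = 0.931), or 0.643 of the WT level. It was -0.38 with array weights and -0.32 without WT replicate 1 and C3aR-/- replicate 2.

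Itgal, the alpha chain CD11a carried by most lymphocytes, read -3.32, -4.02 and -3.0 in C3aR-/- cortex, against -2.41, -2.97 and -2.67 in WT cortex. The separation was narrow, since C3aR-/- replicate 3 stood just under WT replicate 2. The difference was -0.76 ± 0.29 (limma adjusted p = 0.931), or 0.589 of the WT level. The probe was dim, and with normexp background correction, whose offset shrinks differences of dim probes, the difference was -0.35, while leaving out C3aR-/- replicate 2 gave -0.47 and leaving out both end arrays gave -0.34.

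Itga4, the alpha chain CD49d of VLA-4, showed a smaller difference. It read -0.78, -1.34 and -0.53 in C3aR-/- cortex, against -0.41, -0.90 and -0.53 in WT cortex. The 2 groups overlapped, and the difference of -0.27 ± 0.24 had an interval from -0.84 to 0.30. Of the beta chains that pair with it, Itgb1 differed by 0.01 ± 0.18 and Itgb7, which forms the gut-homing integrin of lymphocytes, by -0.85 ± 0.21. Itgb7 read -0.79, -1.03 and -0.39 in C3aR-/- cortex, against 0.18, -0.16 and 0.32 in WT cortex, with no overlap (limma adjusted p = 0.931). Whether the alpha and beta chains differ from each other in their response was not tested.

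Itgam, the alpha chain CD11b of macrophages and neutrophils, was the single measured gene whose probe read higher in C3aR-/- cortex. Its brightest probe read 3.61, 3.65 and 3.78 in C3aR-/- cortex, against 3.44, 3.33 and 3.55 in WT cortex, a difference of 0.24 ± 0.11 (limma adjusted p = 0.931). The groups did not overlap. The sequence of this probe bears on the reading, and its first 30 bases are shown beside those of the other Itgam probe, 5′ to 3′, with the dinucleotide run in capitals:
Itgam tested probe: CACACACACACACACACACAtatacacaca
Itgam other probe: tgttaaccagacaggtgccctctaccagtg
The tested probe, at chr7:135261755-135261814 (mm9), opens with an uninterrupted CA run of 20 bases. The other probe, at chr7:135212140-135212199 (mm9), holds no such run and was well above background on only 1 C3aR-/- and 1 WT array.

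Outside Itgam, 41 probes of the array held a CA run of at least 16 bases, and 40 of them were kept. All 40 read higher in C3aR-/-, by 0.06 to 0.35 with a median of 0.18, where 56.1% of all kept probes read higher. Their mean level was 2.70, 2.72 and 2.87 on the C3aR-/- arrays, against 2.58, 2.58 and 2.61 on the WT arrays, so Itgam and these probes were both highest on C3aR-/- replicate 3. The 71 probes with a GT run of that length had a median difference of -0.025, and 15 of them read higher. This grouping was made after the values were seen and was not tested. The reading of the Itgam probe lies inside the range of probes that share its repeat and not its gene, so no direction for Itgam is given here.

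**Figure D2:**
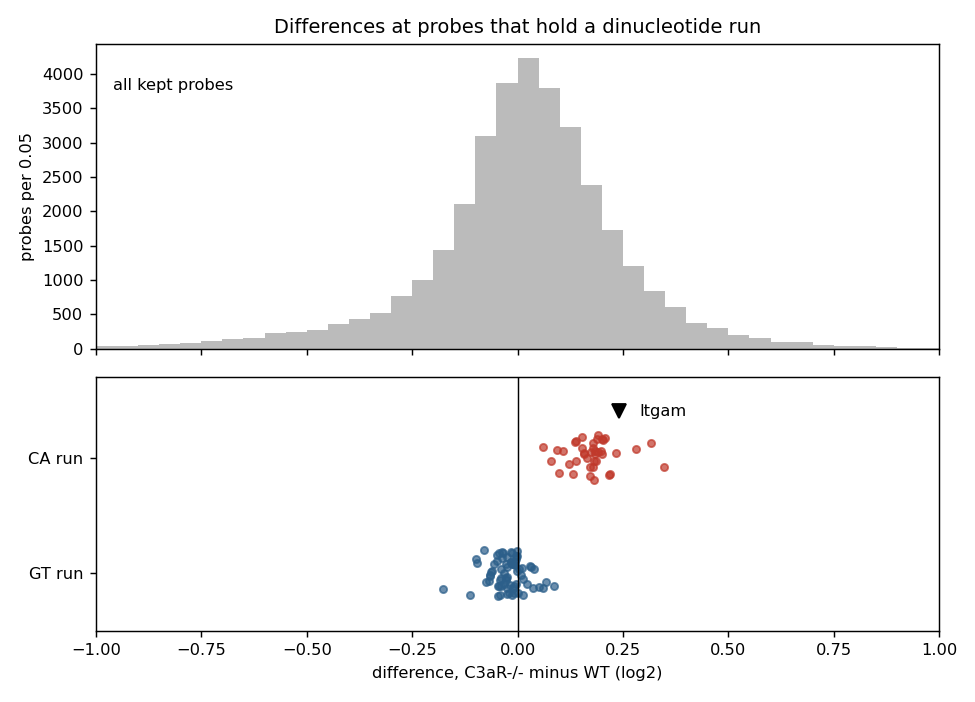
Top, number of kept probes per 0.05 of difference (x axis, C3aR-/- minus WT, log2). Bottom, each point is 1 kept probe with a CA run (40 probes, Itgam left out) or a GT run (71 probes) of at least 16 bases, spread vertically for clarity, and the black triangle marks Itgam at 0.24. All CA-run probes lie to the right of 0. The GT-run probes lie between -0.18 and 0.09, mostly left of 0, with 15 of 71 (21.1%) to the right.

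The endothelial ligands read lower on average in C3aR-/- cortex but with overlapping groups. Vcam1, the ligand of VLA-4, read 2.20, 1.67 and 2.85 in C3aR-/- cortex, against 3.67, 2.53 and 2.62 in WT cortex. Icam1, the ligand of LFA-1 and Mac-1, read 3.54, 3.10 and 3.74 in C3aR-/- cortex, against 4.24, 3.61 and 3.63 in WT cortex. In both genes the row 2 array was the highest of its group, as it was for Itgal and Itga4. Vcam1 differed by -0.70 ± 0.40 (interval -1.67 to 0.28) and Icam1 by -0.37 ± 0.24 (interval -0.94 to 0.21), with an adjusted p of 0.931 for each in limma. Without WT replicate 1 the differences were -0.33 and -0.16, and without both end arrays they were -0.05 and 0.02.

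The slide rows were then compared one by one. In row 1, both C3aR-/- arrays lay under both WT arrays, and in row 2 the C3aR-/- array lay under the WT array, for Vcam1 (differences of -0.64 and -0.82) and for Icam1 (-0.29 and -0.51). This held for 5 of the 7 genes, Itgal, Itgax, Itgb2, Icam1 and Vcam1, where 8.55% of all genes did the same and 11.7% did the opposite. Row 2 stood above row 1 by 0.92 within C3aR-/- and by 1.09 within WT for Vcam1, and by 0.18 and 0.17 for Itgax. For Itgal it did so by 0.67 and 0.42, and for Itga4 by 0.53 and 0.31. With the row as a block, limma gave Vcam1 a standard error of 0.16 and an unadjusted p of 0.00587, and Icam1 a standard error of 0.15 and an unadjusted p of 0.0487, where 4.29% of all genes had an unadjusted p under 0.05 and read lower. The adjusted p over all genes in limma were 0.523 and 0.645, the lowest of the ranges over all alternatives (0.523 to 1 for Vcam1 and 0.645 to 1 for Icam1), so neither gene passed. Row 2 holds 1 array of each group, so row and individual sample cannot be told apart there.

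The second kept probes of Icam1 and Vcam1 repeated these readings. The other Vcam1 probe differed by -0.85 ± 0.53 and the other Icam1 probe by -0.32 ± 0.36. The other kept probe of Itgal differed by -0.53 ± 0.17 and that of Itga4, designed on another transcript, by -0.54 ± 0.33. All 4 point the same way as the probe tested for their gene.

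**Figure D3:**
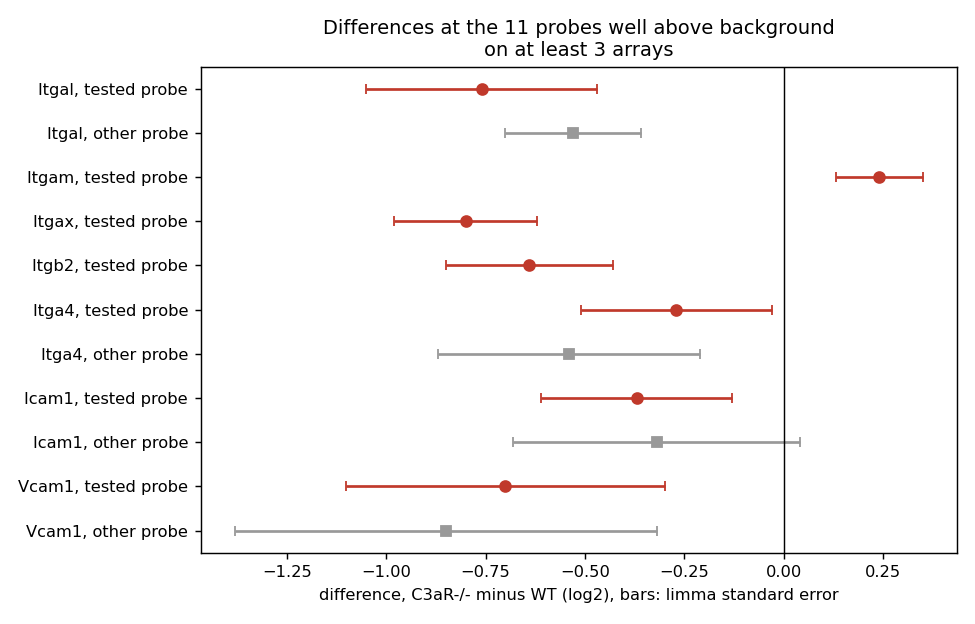
Difference between the groups (x axis, C3aR-/- minus WT, log2) at the 11 kept probes of the 7 genes, with limma standard errors as bars. Red circles are the probes tested for each gene and grey squares the other probes, whose errors come from a fit over all probes. Of the 11, only the Itgam probe lies above 0.

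The selectins of the endothelium were at or under the limit of measurement. The Sele probe was not well above background on any of the 6 arrays, with processed signals of 3.13, 4.03 and 5.48 in C3aR-/- cortex and 3.75, 4.99 and 3.34 in WT cortex, where the lowest signals well above background lay between 15.49 and 24.22. The best of 3 Selp probes, for the P-selectin of endothelium and platelets, was well above background on 1 C3aR-/- array and 1 WT array, with signals of 17, 4.07 and 13.5 in C3aR-/- cortex and 26.2, 15.9 and 16 in WT cortex. No fold is given for either gene. All 13 endothelial markers were measured in the same samples, with mean levels of 1.39 to 1.93 on the C3aR-/- arrays and 1.38 to 1.83 on the WT arrays.

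The partners of the 9 genes were examined next, and none of them passed adjustment over all genes. Of 11 tested genes among other selectins and selectin ligands, 6 read lower and 3 had an unadjusted p under 0.05, all lower (median -0.12). Over all tested genes, 43.4% read lower and 2.68% did so with an unadjusted limma p under 0.05, and the same shares apply to the lists below. Selplg, the ligand PSGL-1 that P-selectin binds, read -0.25, -1.08 and -0.27 in C3aR-/- cortex, against 0.37, -0.18 and 0.32 in WT cortex, a difference of -0.70 ± 0.27. Spn, the leukocyte sialomucin CD43, differed by -0.74 ± 0.19 at its brightest probe, and by -0.89 and -0.18 at its other kept probes. Fut7, the fucosyltransferase that completes selectin ligands, differed by -0.76 ± 0.25, or -0.33 with normexp correction.

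Of 17 other integrin chains tested, 9 read lower (median -0.013), where 43.4% of all tested genes did. Itgb7 was the single one with an unadjusted p under 0.05, and Itgb3, a chain of platelet and vascular integrins, followed at -0.20 ± 0.10. Among the 13 other endothelial and junctional adhesion molecules none had an unadjusted p under 0.05 in limma and the median was -0.024. Cd47, the thrombospondin receptor, had the smallest p there (-0.16 ± 0.15), and Esam (-0.12 ± 0.14), Jam3 (0.08 ± 0.10) and Jam2 (-0.21 ± 0.28), all proteins of cell junctions, came next. The differences of the 13 genes spanned -0.21 to 0.09.

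Of the 12 genes that act inside leukocytes to activate integrins, 6 read lower (median -0.015), where 43.4% of all tested genes did. An unadjusted limma p under 0.05 was found for 2, where 2.68% of all genes had one and read lower. These were Fyb, the adaptor ADAP (-0.63 ± 0.17), and its T cell partner Skap1 (-0.67 ± 0.18). Each had no overlap between the groups, as did 4.19% of all genes in that direction. Fermt3, the kindlin-3 of blood cells, differed by -0.52 ± 0.23 and Apbb1ip, the Rap1 effector RIAM, by -0.54 ± 0.24, with overlap. With normexp correction these were -0.23 and -0.47. Talin (Tln1), the integrin activator of all cells, differed by 0.06 ± 0.09. Of 4 measured cytokines that induce endothelial adhesion molecules, 3 read lower. Ifng differed by -1.23 ± 0.30 (-0.61 with normexp correction). Il1b differed by -0.58 ± 0.22 with overlapping groups (-0.34 with normexp correction). The third, Lta, was well above background on no C3aR-/- array and was kept through its 3 WT arrays alone. Its lower reading was thus favoured by the filter. With normexp correction it differed by -0.22, and no fold is given. Tnf had 2 kept probes that differed by 0.05 and -1.59 and has no agreed direction.

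**Figure D4:**
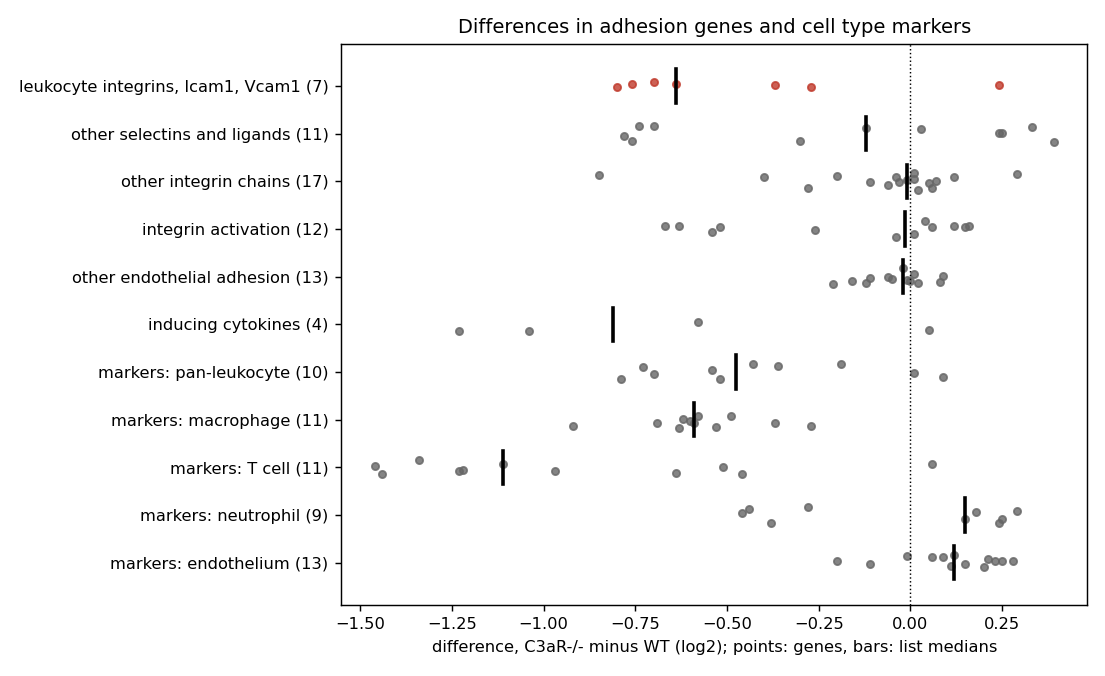
Differences between the groups (x axis, C3aR-/- minus WT, log2) for the tested genes of each list, with the number of genes in brackets, points for genes and bars for medians. The leukocyte integrins with Icam1 and Vcam1 have a median of -0.64, near those of the macrophage and pan-leukocyte markers, while endothelial markers and other endothelial adhesion genes lie around 0.

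Markers of leukocytes also read lower in C3aR-/- cortex, where 43.4% of all tested genes did. Pan-leukocyte markers read lower in 8 of 10 (median -0.48, mean levels of 0.46 to 0.88 in C3aR-/- and 0.91 to 1.30 in WT arrays), macrophage markers in 11 of 11 (median -0.59, 1.42 to 1.93 against 1.92 to 2.61) and T cell markers in 10 of 11 (median -1.1, -2.29 to -1.57 against -1.27 to -0.68). Among 9 tested neutrophil markers 4 read lower (median 0.15, -1.75 to -1.64 in C3aR-/- and -1.70 to -1.53 in WT arrays), while Ngp, Retnlg and Cxcr2 were not kept. The 4 lower ones, S100a8, S100a9, Ly6g and Mmp8, differed by -0.46 to -0.28 with overlap. The 5 higher ones, Mpo, Elane, Camp, Ltf and Csf3r, differed by 0.15 to 0.29. Csf3r, whose 0.15 is the list median, had by far the brightest probe. It read 6.27 to 6.53 in C3aR-/- and 6.09 to 6.33 in WT arrays. Whether that signal comes from neutrophils was not tested. Mpo and Camp had no overlap, where 9.84% of all genes had none in either direction and 4.19% had none with C3aR-/- lower. With normexp correction Mpo and Camp differed by 0.11 and 0.13. Mmp8, well above background on 4 arrays, then differed by -0.02. Endothelial markers read lower in 3 of 13 (median 0.12, 1.39 to 1.93 against 1.38 to 1.83). The proximal tubule markers read higher in 8 of 8 (median 0.41), with overlapping arrays. The part of cell composition in the integrin and ligand differences was not tested.

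Set against the mean of the 10 pan-leukocyte markers on the same array, Itgax and the Itgam probe were the ones whose groups did not overlap. That mean itself separated the groups (-0.42), so a gene with equal levels would read higher in C3aR-/- after the subtraction. The share of all genes separated in this way was not computed. Single markers differed by -0.79 to 0.09, with Cd52 (-0.79), Coro1a (-0.73) and Cd53 (-0.70) near the -0.80 of Itgax. Itgax was -0.97, -0.91 and -0.97 relative to that mean in C3aR-/- cortex, against -0.59, -0.63 and -0.46 in WT cortex. It thus read lower than the mean of the markers by a further -0.39, with no overlap, and by -0.34 to -0.42 under the 19 alternatives. The exact two-sided permutation p was 0.1, the smallest that 3 against 3 allows. Itgal differed by -0.35 and Itgb2 by -0.22 (exact permutation p = 0.2 each), Vcam1 by -0.28 (exact permutation p = 0.5), Itga4 by 0.14 (exact permutation p = 0.3) and Icam1 by 0.05 (exact permutation p = 1). The Itgam probe differed by 0.65 (exact permutation p = 0.1), against 0.24 before the subtraction, with the limit of its CA run given above. Over the 19 alternatives Vcam1 ran from -0.52 to 0.16, Itgal from -0.50 to 0.01, Itgb2 from -0.29 to -0.12, Itga4 from 0.04 to 0.26, Icam1 from -0.10 to 0.23 and the Itgam probe from 0.46 to 0.75. Vcam1 changed sign without both end arrays (0.16), where Itgal was at -0.13, and Itgal was at 0.01 with normexp correction. Ptprc and Cytip, 2 of the 10 markers, did not read lower at their brightest probes (0.09 and 0.01), but the 4 kept Ptprc probes ranged from -0.78 to 0.09 and the other kept Cytip probe differed by -0.35. Relative to the mean of 13 endothelial markers, Vcam1 differed by -0.80 and Icam1 by -0.47, with overlapping groups (exact permutation p = 0.3 each). The median of these 2 differences was -0.64, and -0.06 when both end arrays were left out.

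**Figure D5:**
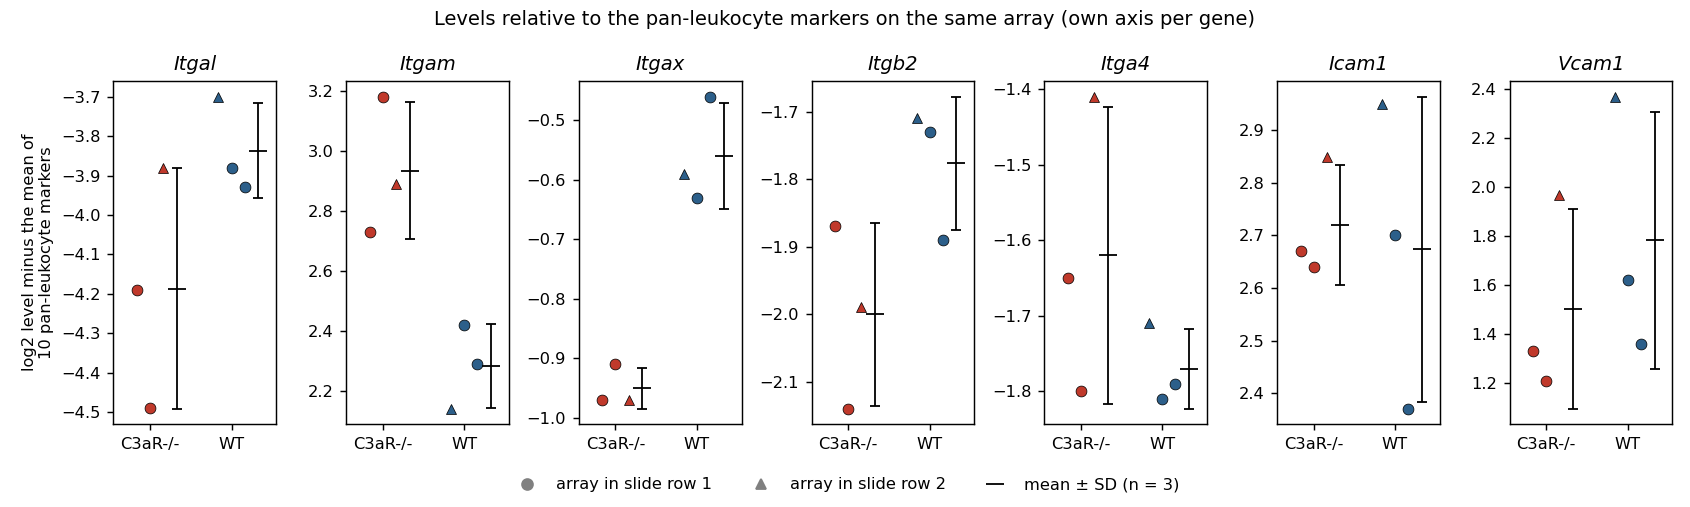
Level of each measured gene minus the mean of 10 pan-leukocyte markers on the same array (y axis, log2, with an axis of its own per gene), C3aR-/- left and WT right, circles and triangles for slide rows 1 and 2, bars for mean ± SD over 3 arrays. Itgax is lower in C3aR-/- without overlap (mean -0.95 against -0.56), the Itgam probe, which holds a CA run and gives no direction for its gene, is higher, and the other 5 genes overlap.

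The genes nearest in pattern over the 6 arrays differed between the adhesion genes. For Vcam1 the smallest root mean square differences of centred log2 levels, among 10834 genes, were those of Ccl2 (0.0673), the chemokine MCP-1 that draws monocytes, Socs1 (0.0681), a feedback inhibitor of cytokine signalling, and Stx11 (0.0783), a syntaxin of immune cells. Ccl2 read 2.49, 1.87 and 3.23 in C3aR-/- cortex, against 3.88, 2.87 and 2.96 in WT cortex, and so was also highest on the row 2 arrays. For Icam1 they were Mvp (0.0438), the major vault protein, Emilin2 (0.0495), a matrix glycoprotein, and Eif4ebp1 (0.0561), a repressor of translation. The Mvp probe compared here differed by -0.34 between the groups, but the other kept Mvp probe differed by 0.19. For Itgb2 they were Cybb (0.0695), the catalytic subunit of the phagocyte NADPH oxidase, an intergenic interval with no gene symbol (0.0711), and Clec4a3 (0.0809), a myeloid lectin receptor. Among the other members, the nearest to Itgb2 was Itgax (rank 174), the nearest to Vcam1 was Itgal (rank 235, ahead of Icam1 at 342) and the nearest to Icam1 was Itga4 (rank 582, with Vcam1 at 2405). This distance counts the size of the swings between arrays as well as their shape. The SD over the 6 arrays was 0.668 for Vcam1 and 0.367 for Icam1, so their ranks do not show unlike shapes. With 6 arrays these are descriptions and carry no test.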

How the data were processed

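RNA of renal cortex was measured on 6 one-colour arrays, 3 C3aR-/- and 3 WT, grouped by sample titles. The deposited intensity values came from Agilent Feature Extraction (10.7.1.1 per the file headers). Its processed signal has the local background subtracted and a spatial trend removed within each array, and coordinates are in mm9. A log2 table deposited by the authors has columns of 1 shared distribution (largest difference 0.000865) that follow their own array (lowest r of 0.9995). The sources used here do not name its tool. Control and outlier spots were left out, spots of a probe averaged, and 6 probes dropped for flags; none was saturated. Levels are log2 processed signal minus the array's 75th percentile. Between 58.58% and 62.98% of probes were well above background per array, 34778 were kept (3 or more arrays), and the brightest probe stood for a gene. Symbols came through RefSeq (GRCm38.p6) for 32992 probes. limma 3.58.1 in R 4.3.3 was checked on simulated data. The number of arrays limits the precision.

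The members and lists were chosen with earlier results of these data known. Named were the members, C3ar1, up to 4 genes of smallest p per adhesion list and 3 nearest patterns (SD of at least 0.2) for Icam1, Vcam1 and Itgb2; Tln1, Itgb1 and single markers were named after their values were seen. One gene that the rule names is not reported here. Cytip, Pecam1, Cdh5, Podxl and Itga2b stand in 2 lists each. NK, B and dendritic cell markers had medians of -1, -0.45 and -0.55 over 4, 4 and 7 tested genes, and platelet and podocyte and medulla markers 0.32, 0.035 and 0.17. Of the 4 NK genes, Klrb1c and Eomes were each well above background on 1 C3aR-/- and 3 WT arrays. Their lower readings were thus favoured by the filter. With normexp correction they differed by -0.19 and -0.06, Klrk1 by -0.55 and Nkg7 by -0.97. The 4 B cell genes then ran from -0.50 to 0.06. The labels do not say whether replicate numbers pair the samples, and the main fit has no pairing. Deviations from the group means correlated at 0.125, 0.406 and -0.0929 in same-numbered pairs. In unlike-numbered pairs they ran from -0.371 to 0.346. With 3 samples per group these values cannot decide whether the numbers mark pairs. Alternatives covered scaling, background, filter, probes, variance model, array weights, blocks and left-out arrays. Figures were drawn with matplotlib 3.10.9.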

Additional observations from a re-analysis of the deposited data

How the results depend on the processing

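No gene passed an adjusted p of 0.05 in limma under any of the 19 alternatives. Of the 7 measured genes, 3 had an unadjusted p under 0.05, and 5 with the slide row as a block, and 1 to 4 with arrays left out in turn (1 without WT replicate 1 and 1 without WT replicate 3), while all genes with such a p numbered 1111, and 1742 with the row, 2115 with array weights and 2025 without WT replicate 1 and C3aR-/- replicate 2. The median difference of the members was -0.64, from -0.74 to -0.33 with arrays left out in turn, and -0.05 without both end arrays, where Icam1 (0.02) and Itga4 (0.06) changed sign. The median of the members minus the pan-leukocyte mean was -0.22, -0.28 to 0.01 with arrays left out in turn, -0.01 after normexp correction, and 0.16 when both end arrays were left out. Endothelial members minus the endothelial mean gave -0.64, -0.99 to -0.28 with arrays left out in turn, and -0.06 when both end arrays were left out. The replicate block gave the same median difference (-0.64), and 3 members with an unadjusted p under 0.05 against 1596 genes; it changed no call. Without C3aR-/- replicate 3, Icam1 differed by -0.50 and Itga4 by -0.45. Every CA-run probe stayed higher in C3aR-/- with normexp correction and in the authors' table, and 39 of 40 did without C3aR-/- replicate 2, C3aR-/- replicate 3 or WT replicate 1. At runs of at least 12 bases, 57 of 62 did, and 31 of 31 at 20 bases. The cause of the other shifts was not tested.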

Other observations

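A few probe readings of the 9 genes stand apart. An Itgax probe designed on a clone of dendritic cell cDNA, at chr7:135277352-135277411 (mm9), had processed signals of 10.1, 4.52 and 7.13 on the C3aR-/- arrays, against 10.3, 5.29 and 189 on the WT arrays. It was well above background on WT replicate 3 alone, and the tested Itgax probe read 0.80 there, beside 0.71 and 0.28 on the other WT arrays.

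A pair of Itgal probes on 1 cDNA share an uninterrupted run of 56 of their 60 bases and still read differently. The first 30 bases of each are given 5′ to 3′, with the shared run in capitals:
Itgal probe detected: gtcCCACTGCTCTGTCTTTTATTAACAATG
Itgal probe not detected: ctgtCCACTGCTCTGTCTTTTATTAACAAT
The first, at chr7:134474711-134474767 (mm9), was well above background on 5 arrays, with signals of 17, 16.9 and 23.7 in C3aR-/- cortex and 27.9, 30.7 and 30.1 in WT cortex. The second, at chr7:134474706-134474766 (mm9), was not well above background on any array, with signals from 3.2 to 4.4 in C3aR-/- cortex and 4.18 to 5.78 in WT cortex.

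Of the 6 Itga4 probes, 4 were not well above background on any array, so the gene's reading rests on the remaining 2. Gcnt1, an enzyme of selectin ligand synthesis, also had kept probes that disagreed, at 0.39 and -0.52.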
